A study of Mus musculus with 4 samples.

Results

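The HIF pathway is the way animal cells read oxygen, and 32 of its genes were followed here in 4T1 cells, a mouse mammary carcinoma line, after a hairpin against Ldha. The list named 9 genes of the pathway itself (the HIF subunits, the hydroxylases that sense oxygen and Vhl) and 23 genes that hypoxia is known to induce. A gene was taken where an array probe set carried its symbol and no other. This matched 27 of the 32 genes, on 30 probe sets, among 22180 genes tested. All 9 regulators and 18 of the 23 induced genes were matched. Bnip3l, Loxl2, Jmjd6 and Ankrd37 shared each of their probe sets with another symbol and have no value here, and Ero1l is carried under its newer symbol Ero1a, whose values are given apart from the counts.

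All cells were 4T1 and were cultured alike for 24 hours, and whole-transcript Affymetrix arrays were each hybridised from 400 ng of RNA. The control group carried a scramble shRNA (scramble, 2 arrays) and the other group an shRNA against Ldha (shLDHA, 2 arrays). Cells that took up the Ldha hairpin were selected with 10 µg/ml puromycin and pooled. The labels give 1 hairpin name and no selection of the scramble cells, so hairpin, selection and knockdown cannot be told apart. The labels name no oxygen level, and their cell type field reads LDHA in both groups, so groups were taken from the sample titles. They do not say that the 2 arrays of a group came from separate cultures, so the p-values reflect the spread among these 4 arrays alone, and part of it may be technical.

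HIF is a pair of proteins, an oxygen-labile alpha subunit (Hif1a, Epas1 or Hif3a) and the stable beta subunit Arnt. With oxygen present, the prolyl hydroxylases Egln1, Egln2 and Egln3 mark the alpha subunit, the Vhl ubiquitin ligase binds the mark and the subunit is destroyed, while the asparaginyl hydroxylase Hif1an blocks its contact with coactivators. Without oxygen the alpha subunit lasts, pairs with Arnt and binds short DNA elements near genes of glycolysis, blood supply, matrix and mitochondria. The control acts mainly on the protein, so the mRNA of a subunit is a poor measure of HIF activity, which was not measured here.

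In shLDHA cells, 5 induced genes were higher and 2 were lower, while 0 of the 9 subunit, hydroxylase and Vhl genes passed the test. Adm, Bhlhe40, Bnip3, P4ha1 and Kdm3a rose, Adm 3.08-fold and the rest between 1.38-fold and 1.55-fold. Stc1 fell 4.80-fold and Higd1a 1.38-fold. The test was limma, a linear model fitted across all genes, and passing means a Benjamini-Hochberg adjusted p below 0.05. The 7 of 27 members past it (25.9%) stand beside 6.36% of all genes, 3.37% being higher and 2.99% lower. The members were chosen with earlier results of these data known, so this comparison is a description. At the share of all genes, 0 of 9 is an ordinary count for so small a set. Most members were well expressed, and among genes at or above the median level 11.7% passed, against 7 of 23 members there (30.4%). When limma was refitted to those brighter genes alone, 25.1% of them passed, against 9 of the 23 members. The list did not move one way, since the median log2 change was 0.03 over the members and 0.01 over all genes.

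The core of the element that HIF binds is the 5-letter run ACGTG or GCGTG. Promoter windows are shown because these 5 members passed the test and were in the sequence table, where 20 of the 27 matched members were found. The sequences are from RefSeq on build GRCm38.p6, from 250 bases before to 50 after a start site, written 5′ to 3′ on the strand of the gene. Capitals mark each ACGTG or GCGTG on either strand, so that CACGT and CACGC are the same letters read from the opposite strand. Adm lies on chr7:110627407-110627706 (plus strand), Bnip3 on chr7:138909457-138909756 (minus), P4ha1 on chr10:59323046-59323345 (plus), Kdm3a on chr6:71632868-71633167 (minus) and Higd1a on chr9:121857747-121858046 (minus).

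Adm: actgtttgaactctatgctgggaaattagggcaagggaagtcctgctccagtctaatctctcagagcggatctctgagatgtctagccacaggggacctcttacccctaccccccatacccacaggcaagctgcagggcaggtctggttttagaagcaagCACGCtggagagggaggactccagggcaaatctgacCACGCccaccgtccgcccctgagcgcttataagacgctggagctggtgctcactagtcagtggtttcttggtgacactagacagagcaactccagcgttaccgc
Bnip3: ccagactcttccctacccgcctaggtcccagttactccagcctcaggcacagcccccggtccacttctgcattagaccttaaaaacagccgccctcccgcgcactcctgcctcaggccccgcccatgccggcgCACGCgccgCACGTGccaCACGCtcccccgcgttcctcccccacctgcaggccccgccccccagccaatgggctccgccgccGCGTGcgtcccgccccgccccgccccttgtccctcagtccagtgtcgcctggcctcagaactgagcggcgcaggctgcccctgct
P4ha1: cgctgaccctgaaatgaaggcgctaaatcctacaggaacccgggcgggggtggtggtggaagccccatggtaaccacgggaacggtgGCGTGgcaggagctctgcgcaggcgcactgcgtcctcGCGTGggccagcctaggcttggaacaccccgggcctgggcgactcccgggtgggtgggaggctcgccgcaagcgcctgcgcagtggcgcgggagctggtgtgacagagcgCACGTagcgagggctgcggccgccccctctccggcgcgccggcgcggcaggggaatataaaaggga
Kdm3a: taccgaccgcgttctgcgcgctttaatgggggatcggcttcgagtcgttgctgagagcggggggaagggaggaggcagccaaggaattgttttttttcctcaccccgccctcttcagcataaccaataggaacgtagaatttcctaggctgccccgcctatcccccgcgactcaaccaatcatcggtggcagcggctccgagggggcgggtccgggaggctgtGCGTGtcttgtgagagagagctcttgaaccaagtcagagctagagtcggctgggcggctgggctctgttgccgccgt
Higd1a: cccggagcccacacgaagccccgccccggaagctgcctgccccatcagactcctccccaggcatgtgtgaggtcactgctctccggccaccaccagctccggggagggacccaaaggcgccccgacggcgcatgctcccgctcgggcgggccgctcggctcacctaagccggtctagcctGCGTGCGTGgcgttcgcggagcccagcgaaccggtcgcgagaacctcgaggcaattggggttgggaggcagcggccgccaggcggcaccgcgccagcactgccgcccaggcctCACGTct

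The Adm window held 2 runs, at positions -90 and -54 from the start site, and the Kdm3a window 1, at -27. The P4ha1 window held 3, at -163, -126 and -16, and that of Higd1a 3, at -70, -66 and 43. Bnip3 had the most, with 5 matches between -117 and -35. The 2 ACGTG matches of Bnip3 are the strands of 1 palindrome, CACGTG, which is also an E-box, the letters that Bhlhe40 and Myc proteins bind. Kdm3a has 3 windows in the table and only the outermost, shown here, held a match.

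Such letters are common in promoters, also in those of genes outside the pathway. Over all 32851 windows of this length, 43.8% held a match, 19.6% an ACGTG and 32.4% a GCGTG. Of the 26 windows of 20 matched members, 20 held a match (76.9%). The share was 5 of 7 windows of members past the threshold (71.4%) and 15 of 19 of the other members (78.9%). Counted by gene, 5 of 5 members past the threshold and 13 of 15 other members had a window with a match. Some genes have several windows, so the order of these sets depends on whether windows or genes are counted. Base composition was not matched between these sets, and a run of letters is not a site that HIF was shown to bind.

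The regulators come first. Hif1a encodes the most widely used alpha subunit. It read 9.47 and 9.41 in scramble and 9.28 and 9.11 in shLDHA, all on the log2 scale of the deposited values (probe set 17276328). Both shLDHA arrays lay below both scramble arrays, but the log2 change of -0.24 (SE 0.09) did not pass (limma adjusted p = 0.202). A second, dimmer Hif1a probe set, 17281911, moved the opposite way, from 4.87 and 4.79 to 5.14 and 5.42. Its log2 change was 0.45 (SE 0.11), with an adjusted p of 0.0760 in a limma fit of each probe set that carries 1 symbol. Since the 2 probe sets disagree in sign, no direction is given for Hif1a.

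Epas1 encodes the alpha subunit HIF-2 alpha, which is prominent in endothelium and kidney. It read 3.26 and 3.39 in scramble and 3.29 and 3.31 in shLDHA. Hif3a, whose product can restrain the other subunits, read 3.34 and 3.43 in scramble and 3.32 and 3.35 in shLDHA. These levels lie below 4.19, the level under which 95% of 1105 olfactory receptor genes fell, so neither transcript was seen above the level of genes that these cells are not known to use. The groups overlapped for both. Arnt read 8.53 and 8.54 in scramble and 8.38 and 8.36 in shLDHA, a log2 change of -0.17 (SE 0.08, limma adjusted p = 0.308) with no overlap between the groups.

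Of the hydroxylases, none passed. Egln1 encodes the main oxygen sensor of most cells. It read 8.43 and 8.36 in scramble and 8.35 and 8.34 in shLDHA, a log2 change of -0.05 with a 95% interval from -0.25 to 0.15. Egln2, whose product also hydroxylates the alpha subunits, read 6.28 and 6.27 against 6.07 and 6.12. Its groups did not overlap, and its log2 change of -0.18 (SE 0.08) had an adjusted p of 0.273 in limma.

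Egln3 is itself a well known hypoxia-induced gene. It read 8.38 and 8.37 in scramble and 8.38 and 8.45 in shLDHA, a log2 change of 0.04 with a 95% interval from -0.16 to 0.24. The upper end of that interval leaves room for a rise smaller than that of any induced gene that passed. Hif1an read 6.09 and 6.35 against 6.37 and 6.31, so that its spread in scramble was wider than the groups' difference. Vhl read 5.83 and 5.65 against 5.85 and 5.86, a log2 change of 0.12 (SE 0.10).

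**Figure D1:**
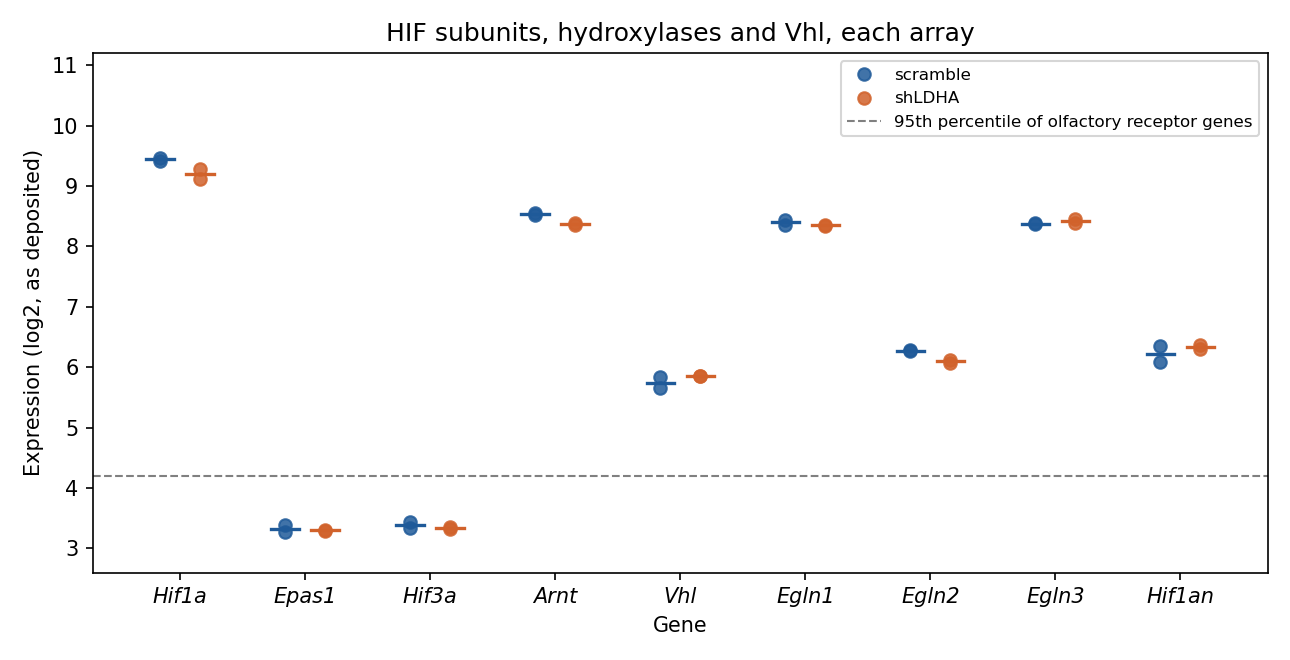
Expression of the HIF subunits, the hydroxylases and Vhl on each of the 4 arrays. The vertical axis is the deposited log2 value, points are arrays (2 per group), short bars are group means and the dashed line is 4.19, the level below which 95% of olfactory receptor genes fell. The groups lie close together for each gene, and Epas1 and Hif3a sit below the dashed line.

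The 9 regulators had a median log2 change of -0.05 and ran from -0.24 to 0.12. At an unadjusted p under 0.05, which 21.5% of all genes met, 1 of the 9 passed, Hif1a. Limma with a variance trend called the brighter Hif1a probe set lower (adjusted p = 0.0381), a setting in which 12.7% of all genes passed. The 18 induced genes had a median of 0.05 and ran from -2.26 to 1.62, with 5 higher, 2 lower and 11 that did not pass. The difference between the 2 roles was not tested. The median of the induced genes rests on the setting, at 0.17 with the filter at the median level, 0.096 without scramble replicate 2, 0.15 without shLDHA replicate 2 and 0.032 without shLDHA replicate 1. That of the regulators was -0.091 without scramble replicate 1 and -0.0059 without scramble replicate 2.

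Among the secreted hormones, the 2 largest changes of the list ran in opposite directions. Adm encodes adrenomedullin, a peptide that widens vessels and is made by many hypoxic tumour cells. It read 3.49 on both arrays of scramble and 5.22 and 4.998 in shLDHA, so the groups lay far apart. Group means were 3.49 ± 0.0029 (SD, n = 2) and 5.11 ± 0.16 (SD, n = 2), 3.08-fold higher (log2 change 1.62, SE 0.10, limma adjusted p = 0.000974).

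Stc1 encodes stanniocalcin 1, a secreted glycoprotein first known as a calcium-regulating hormone of fish and a known HIF target. It read 5.66 and 5.75 in scramble and 3.46 and 3.42 in shLDHA. Scramble thus averaged 5.70 ± 0.06 (SD, n = 2) and shLDHA 3.44 ± 0.03 (SD, n = 2), 4.80-fold lower (log2 change -2.26, SE 0.08, limma adjusted p = 0.000164). The scramble level of Adm and the shLDHA level of Stc1 both lie below the olfactory receptor level of 4.19, where array signals are compressed, so both folds may understate the change.

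Stc2, the relative of Stc1, read 6.95 and 7.12 in scramble and 6.82 and 6.74 in shLDHA. The groups did not overlap, and the log2 change of -0.26 (SE 0.10) did not pass (limma adjusted p = 0.194). Adm and Stc1 kept their direction and passed in all 13 alternative settings, including those that left out 1 array.

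The mitochondrial members also parted. Bnip3 encodes a protein of the outer membrane that marks mitochondria for mitophagy, their removal by autophagy. It read 6.43 and 6.29 in scramble and 6.94 and 6.94 in shLDHA, 1.49-fold higher (log2 change 0.58, SE 0.09, limma adjusted p = 0.0173). Higd1a, which encodes a small protein of the inner membrane that helps cells survive low oxygen, read 6.54 and 6.40 against 6.01 and 6.003. It was 1.38-fold lower (log2 change -0.46, SE 0.09, limma adjusted p = 0.0351). For both genes the groups were well apart and the scramble arrays spread more widely than the shLDHA arrays.

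Fam162a, a mitochondrial gene that hypoxia is known to induce, read 9.16 and 9.06 in scramble and 8.82 and 9.03 in shLDHA. Its log2 change of -0.18 (SE 0.10) did not pass (limma adjusted p = 0.376), and 1 shLDHA array was close to the scramble level. So 1 mitochondrial gene rose, 1 fell and 1 did not pass.

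Of 5 enzymes of collagen and matrix, P4ha1 alone passed. It encodes the catalytic subunit of the hydroxylase that stabilises the collagen helix, an oxygen-using enzyme like the Egln proteins but with another substrate. It read 8.39 and 8.33 in scramble and 8.93 and 8.87 in shLDHA, 1.46-fold higher (log2 change 0.55, SE 0.08, limma adjusted p = 0.0170). The gap between the groups was several times the spread within them.

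P4ha2, another catalytic form, read 4.74 and 4.43 against 4.89 and 4.85, a log2 change of 0.28 (SE 0.12, limma adjusted p = 0.231). Plod1 and Plod2, which encode the lysyl hydroxylases that prepare collagen for crosslinking, had log2 changes of -0.21 (SE 0.09) and -0.18 (SE 0.09), with no overlap between the groups in either. Lox, which encodes the crosslinking enzyme lysyl oxidase, ran from 2.55 to 2.596 over the 4 arrays, below the olfactory receptor level. Thus P4ha1 and both Plod genes had estimates of opposite sign, and only that of P4ha1 passed.

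Kdm3a and Kdm4b encode histone demethylases that also use oxygen. Kdm3a, which acts on lysine 9 of histone H3, read 7.67 and 7.63 in scramble and 8.12 and 8.11 in shLDHA. It was 1.38-fold higher (log2 change 0.47, SE 0.08, limma adjusted p = 0.0250), with arrays of a group nearly equal. Kdm4b read 5.72 and 5.80 against 5.89 and 5.71, so its groups overlapped, and its log2 change was 0.05 with a 95% interval from -0.19 to 0.28.

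The 3 transcriptional repressors all had positive estimates, and 1 passed. Bhlhe40 encodes a repressor of the circadian clock that binds E-boxes and is induced by hypoxia and many other stimuli. It read 7.68 and 7.62 in scramble and 8.24 and 8.33 in shLDHA, 1.55-fold higher (log2 change 0.63, SE 0.09, limma adjusted p = 0.0120). Its relative Bhlhe41 read 6.997 and 7.07 against 7.28 and 7.48, a log2 change of 0.34 (SE 0.10, limma adjusted p = 0.105).

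Mxi1 encodes a partner of Max that opposes Myc. It read 6.90 and 6.98 in scramble and 7.20 and 7.43 in shLDHA, a log2 change of 0.37 (SE 0.11, limma adjusted p = 0.101). A second Mxi1 probe set gave 0.15 (SE 0.14) with overlapping groups. All shLDHA arrays lay above all scramble arrays for the 3 repressors on the probe sets used in the test, as they did for 26.2% of all genes. Bhlhe41 and Mxi1 passed in 2 alternative settings, the filter at the median level (adjusted p = 0.0321 and 0.0316) and limma with a variance trend (0.0278 and 0.0261). These settings called 25.1% and 12.7% of all genes they tested.

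**Figure D2:**
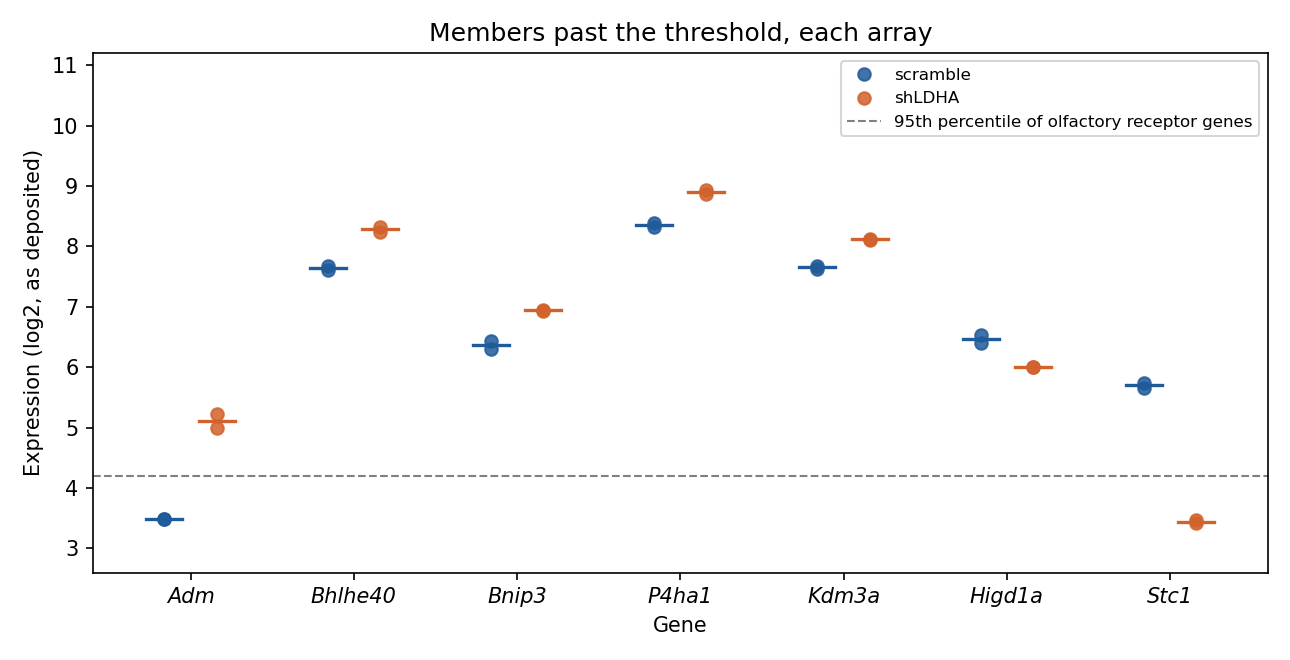
Expression on each of the 4 arrays for the 7 members that passed the test, ordered by log2 change. The vertical axis is the deposited log2 value, points are arrays (2 per group), bars are group means and the dashed line is 4.19, the 95th percentile of olfactory receptor genes. Adm starts below the line in scramble and Stc1 ends below it in shLDHA, while the other 5 lie above it in both groups.

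The remaining induced genes showed little difference. Ndrg1, a stress-induced gene widely used as a marker of hypoxia, read 10.90 and 10.99 in scramble and 10.97 and 11.04 in shLDHA. Its log2 change was 0.06, with a 95% interval from -0.14 to 0.27. A second Ndrg1 probe set gave -0.06. Ppfia4, a liprin family gene, had a mean of 3.23 in scramble and 3.26 in shLDHA and overlapping groups. Ero1a, the gene listed as Ero1l, encodes an oxidase that forms disulfide bonds in the endoplasmic reticulum. It read 10.65 and 10.71 in scramble and 10.66 and 10.58 in shLDHA, a log2 change of -0.07 (SE 0.08).

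**Figure D3:**
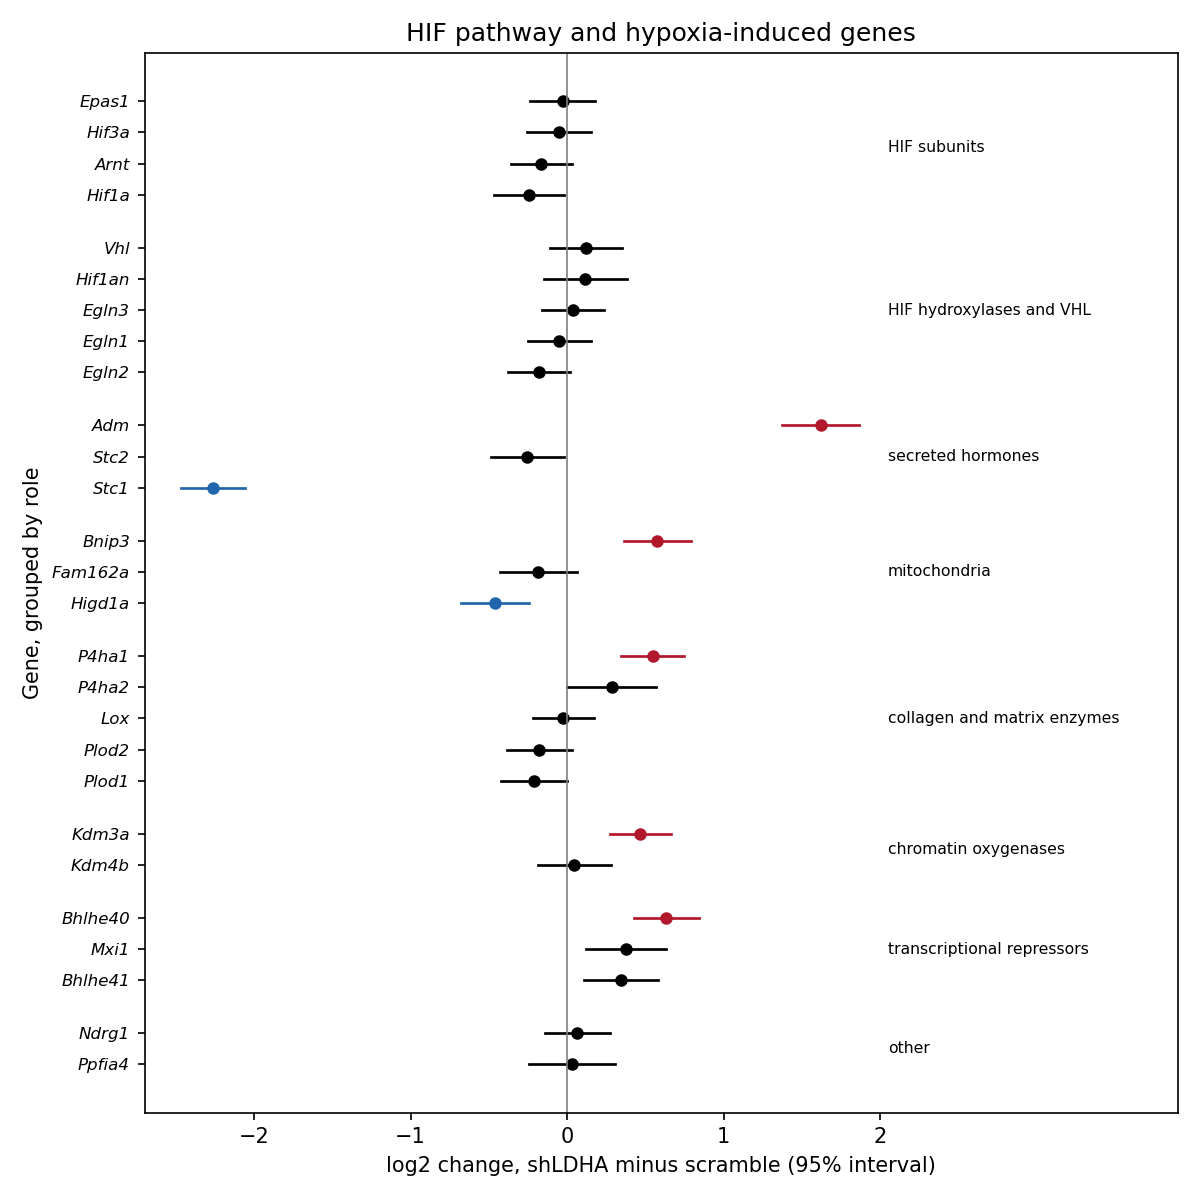
Log2 change (shLDHA minus scramble) of the 27 matched members with its 95% interval from limma, grouped by role. Red genes were higher and blue genes lower past the threshold, and black genes did not pass. The subunits and hydroxylases lie near 0, and each of the groups of secreted hormones and mitochondrial genes holds 1 red and 1 blue gene.

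Arrays of the 2 groups did not overlap for 10 members that lay higher in shLDHA and 11 that lay lower. Among all genes this held for 26.2% in the first direction and 24% in the second. With 2 arrays a group such gaps are common, and most of these members did not pass. Of the 27 members, 13 passed at an unadjusted p under 0.05, beside 21.5% of all genes, and 4 (Epas1, Hif3a, Lox and Ppfia4) had both group means below the olfactory receptor level.

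**Figure D4:**
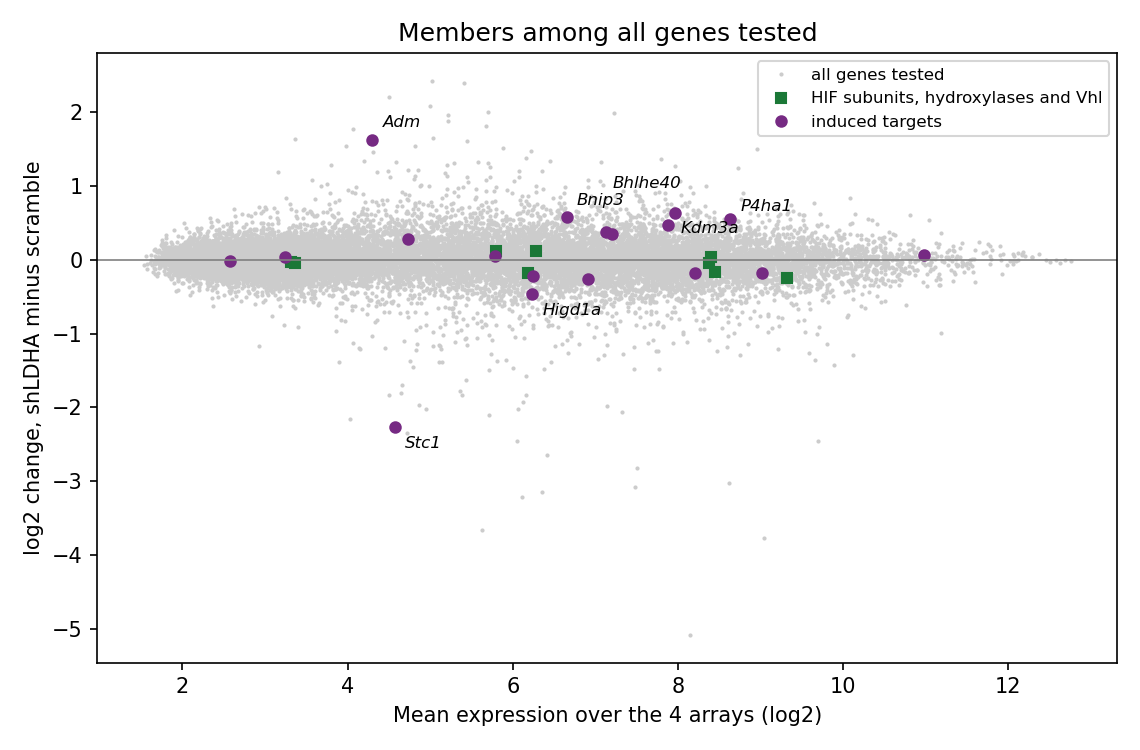
Log2 change (shLDHA minus scramble) against mean expression over the 4 arrays for all 22180 genes tested (grey), with the 9 regulators as green squares and the 18 induced genes as purple circles. The 7 members past the threshold are named. Adm and Stc1 stand at the edges of the grey cloud, and the regulators stay inside it.

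How many members passed rests on all 4 arrays. Without scramble replicate 1 it was 4, and without scramble replicate 2, shLDHA replicate 1 or shLDHA replicate 2 it was 2, Adm and Stc1 each time. The share of all genes that passed also dropped then, to between 1.67% and 2.87%. Bnip3 and Bhlhe40 kept the call without scramble replicate 1, with adjusted p up to 0.0859 and 0.0731 without the others. P4ha1, Kdm3a and Higd1a lost it without any 1 array, with adjusted p of 0.0556 to 0.0855, 0.0860 to 0.111 and 0.0672 to 0.154. Their log2 changes then stayed between 0.52 and 0.58, between 0.45 and 0.49, and between -0.53 and -0.39.

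The targeted gene checks the labels. Ldha, itself a hypoxia-induced gene, read 6.69 and 6.96 in scramble and 6.31 and 6.15 in shLDHA, 1.51-fold lower (log2 change -0.59, SE 0.12, limma adjusted p = 0.0390). It lost the call with the replicate block (adjusted p = 0.0734) and without scramble replicate 2 (0.128), shLDHA replicate 1 (0.0965) or shLDHA replicate 2 (0.163), while its log2 change stayed between -0.73 and -0.45. The 3 lists of other pathway genes were, like the members, drawn up with earlier results of these data known, and are given as a description.

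Among genes that assist or destroy HIF, 0 of 13 passed over all genes tested in limma, beside 6.36% of all genes. At an unadjusted p under 0.05, 2 of the 13 passed, a smaller share than the 21.5% of all genes. These 2 were Crebbp, a coactivator of HIF, with a log2 change of -0.27 (SE 0.08, limma adjusted p = 0.126), and Cited2, a hypoxia-induced inhibitor that competes for that coactivator, with -0.28 (SE 0.09, limma adjusted p = 0.143). The elongin gene Elob had a log2 change of -0.19 and the ubiquitin ligase gene Siah1b one of 0.16. The list ran from -0.28 to 0.17, with a median of -0.02, close to the range of the subunits and hydroxylases. The filter at the median level called 2 of these genes, Crebbp and Cited2, beside 25.1% of all genes it tested. Limma with a variance trend called 3, with Elob added, beside 12.7% of all genes.

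Of 31 other hypoxia-induced genes outside glycolysis, 6 rose and 2 fell (25.8% past the threshold, beside 6.36% of all genes). Their median log2 change was 0.07. Their mean level was 6.48 to 6.67 on the 4 arrays against 4.93 for all genes, and 11.7% of genes at or above the median level passed. Vldlr, which encodes a lipoprotein receptor, read 4.02 and 4.07 in scramble and 5.45 and 5.73 in shLDHA, 2.91-fold higher (limma adjusted p = 0.00157). Its scramble level too lies below 4.19, so this fold may understate the change. Ddit4, an inhibitor of mTORC1, read 7.84 and 7.84 against 8.77 and 8.90. Car9, a carbonic anhydrase of the cell surface, read 7.70 and 7.62 against 8.57 and 8.71. Narf rose by 0.83 and Pdk1, which encodes the kinase that shuts pyruvate out of mitochondria, by 0.53 on the log2 scale.

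Vegfa, the gene of the main vessel growth factor, read 9.12 and 9.19 in scramble and 9.20 and 9.23 in shLDHA, a log2 change of 0.06 (SE 0.08, limma adjusted p = 0.767). The other calls were Ccng2 (0.69), Nt5e (-0.49) and Rab20 (-0.64), named after their values were seen. Of the 31 genes, 23 did not pass. The mean of the Pdk1 probe sets gave 0.22, and Pdk1 did not pass under it (adjusted p = 0.219), nor without any 1 array.

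Of 14 hypoxia-induced glycolysis genes other than Ldha, 2 rose and 2 fell (28.6% past the threshold, beside 6.36% of all genes). The list was bright, with a mean level of 8.06 to 8.12 on the 4 arrays against 4.93 for all genes. Of genes at or above the median level, 11.7% passed. Pfkfb3, which encodes an enzyme that makes an activator of glycolysis, read 5.13 and 5.12 in scramble and 4.38 and 4.31 in shLDHA, 1.72-fold lower (limma adjusted p = 0.00510). Hk2 was 1.46-fold lower, while Pfkl and Pgam1 were 1.40-fold and 1.32-fold higher. The glucose transporter gene Slc2a1 read 9.52 and 9.56 in scramble and 9.54 and 9.53 in shLDHA, so its groups overlapped. The median log2 change of the list was 0.04. Without 1 array, 1 or 2 of these 14 genes passed, Pfkfb3 each time. Pfkl and Pgam1 lost the call without any 1 array and with the replicate block. Pgam1 also lost it with the mean of its probe sets (limma adjusted p = 0.0689). Of the fits without 1 array, Hk2 kept the call only in that without scramble replicate 1, and it kept the call in all other settings.

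**Figure D5:**
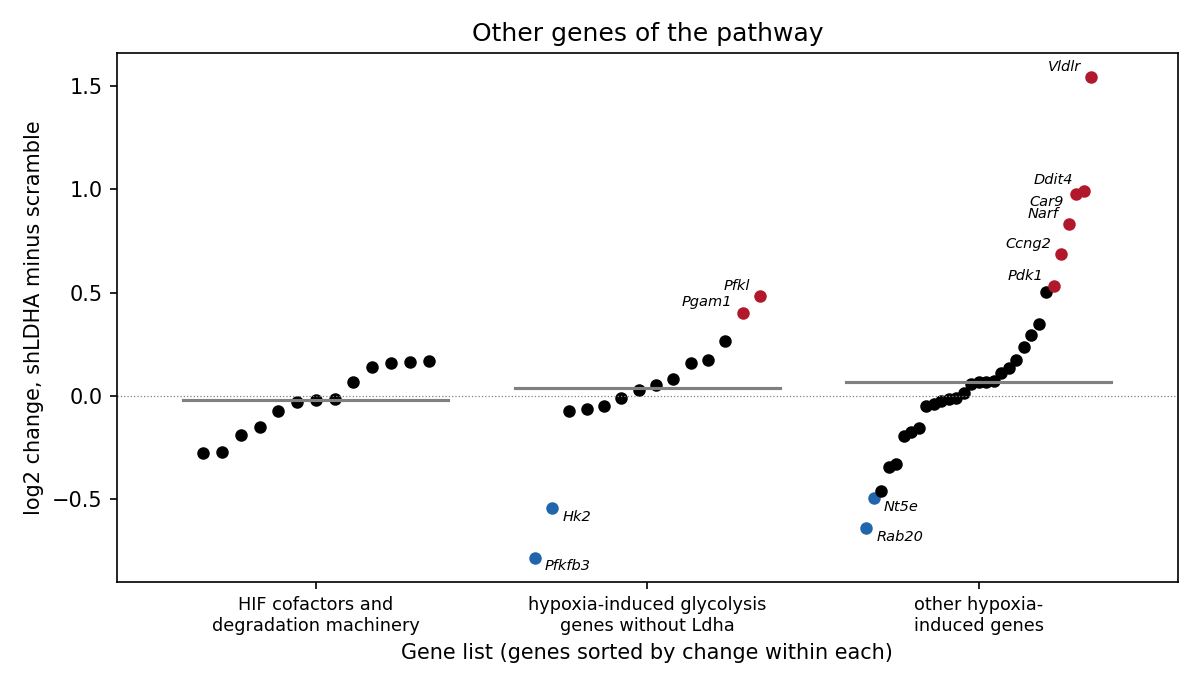
Log2 change (shLDHA minus scramble) of the other pathway genes in 3 lists, sorted within each list. Each point is a gene, red and blue points were higher and lower past the threshold and are named, black points did not pass, and the grey bar is the median of the list. No cofactor gene passed, and both induced lists hold red and blue points.

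The arrays themselves were alike. Their medians over all 41345 probe sets ran from 3.87 to 3.896. Across genes, which are not independent replicates, arrays of a group correlated at r = 0.997 and arrays of different groups at 0.993. Markers of mammary epithelium were present, with Cdh1 and Krt18 the brightest of the 10 tested in scramble. Epcam, Krt8 and Krt14 rose by 0.53, 0.47 and 0.80 and Cldn3 and Cldn7 changed by -0.97 and -1.06. Krt14 started below the olfactory receptor level (scramble mean 3.902), and without any 1 array Epcam and Krt8 did not pass, nor Krt14 without shLDHA replicate 2. The mean level of the 10 epithelial markers was 8.27 to 8.28 on the scramble arrays and 8.23 to 8.27 on the shLDHA arrays.

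Markers of other cells were low. Of 9 fibroblast markers 7 lay below the olfactory receptor level, as did 7 of 9 leukocyte and 7 of 7 endothelial markers, Ptprc and Pecam1 among them. Mean levels on scramble and shLDHA arrays were 3.68 to 3.76 and 3.65 to 3.73 for fibroblast markers, 3.72 to 3.79 and 3.62 to 3.64 for leukocyte markers and 2.98 to 3.05 and 3.04 to 3.14 for endothelial markers. Above that level in both groups were Pdgfra (means of 6.52 and 6.49), Acta2 (4.51 and 4.56), Cd14 (5.75 and 5.65) and Cd68 (7.46 and 6.55). Of the markers in these 3 lists Cd68 alone passed, and it fell by 0.91 on the log2 scale. The part of Cd68 and the epithelial markers in the members' changes was not tested.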

How the data were processed

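RNA was measured on 4 whole-transcript arrays, 2 per group. The deposited unit is log2 expression per probe set. Per the submitters' processing notes, the authors used RMA, run in R 3.4.0; its background and annotation settings are not stated there. RMA as commonly run normalizes arrays to 1 distribution, so a shift shared by most genes would be removed. Values ran from 1.23 to 12.91, and 0 columns were left out.

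Of 41345 probe sets, a platform table gave exactly 1 symbol for 23521, several for 1814 and none for 16010. The first kind entered, and for each of 1082 genes with several probe sets the one with the highest mean was tested, which left 22180 genes with no filter on level. Groups were compared with limma 3.58.1 (lmFit, eBayes) in R 4.3.3, two-sided, with no covariate and 2 residual degrees of freedom. An adjusted p is Benjamini-Hochberg over all genes tested, with a threshold of 0.05. Confidence intervals are limma's at 95% and SDs are over 2 arrays. Array number, not depth in reads, limits the precision. The code was tested on simulated data.

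Members and gene lists were chosen with earlier results of these data known. All members are named, and from each other pathway list the up to 4 genes with the smallest p, with Ldha, Vegfa, Car9, Ddit4, Slc2a1 and Pdk1 always, and markers past the threshold. Alternatives were the replicate number as a block, filters at the median and above the 25th percentile of level, quantile normalization again, median centring, the mean of a gene's probe sets, each probe set with 1 symbol tested, eBayes with trend or robust, each array left out (13 settings) and a threshold of 0.1. Promoters came from a RefSeq table of build GRCm38.p6. Figures were drawn with matplotlib 3.10.9.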

Additional observations from a re-analysis of the deposited data

How the results depend on the processing

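Adm and Stc1 passed in each of the 13 alternative settings. Counts of all genes past the threshold (1410, of which 747 higher and 663 lower) were 838 (433 and 405) with the replicate block, 2783 (1442 and 1341) with the filter at the median level, 2806 (1425 and 1381) with a variance trend, 2391 (1271 and 1120) at a threshold of 0.1, and 370 to 636 (150 to 322 and 220 to 316) without 1 array. The replicate numbers are not stated to pair the arrays, and deviations of replicate 1 in both groups correlated at r = -0.03 across genes. With the replicate block, 5 members passed, Higd1a (adjusted p = 0.0646) and Kdm3a (0.0559) losing the call, so that 1 was lower; 2 glycolysis genes passed, and Ldha, at -0.59, did not (0.0734). Without 1 array, 2 to 4 members passed (1 to 3 higher, 1 lower), 5 to 6 other hypoxia-induced genes, 1 to 2 glycolysis genes, and Ldha lay between -0.73 and -0.45, past the threshold only without scramble replicate 1. A variance trend called 10 members, 1 of them a regulator, and 3 cofactor genes, beside 12.7% of all genes. The filter at the median level called 9 members and 2 cofactor genes, beside 25.1% of all genes it tested. The median of the regulators ran from -0.091 to -0.0059 without 1 array. That of the induced genes was 0.17 with the filter at the median level, which tests fewer genes, 0.038 with the mean of probe sets and 0.032 to 0.15 without 1 array. Signs turned for Hif1a with the mean of probe sets (0.10), since its probe sets disagree, and without 1 array for Hif1an (-0.017 to 0.25) and Ppfia4 (-0.11 to 0.17); for these 2 the cause was not tested. Epas1 (0.032 without scramble replicate 2) and Kdm4b (-0.045 without shLDHA replicate 1) also changed sign, by less than their SE. Of the member values under alternatives, 318 kept their direction or moved within the SE, and their side of the threshold; 20 lost a call, 5 gained one and 3 turned. Genes near the olfactory receptor level can show small changes only as compressed values.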

Other observations

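Relatives and partners of the members that passed were looked up after the members' values were seen, so they are a description, and 18 of 21 had a probe set of their own. Of these, 1 was higher and 2 were lower past the threshold in limma (16.7%, beside 6.36% of all genes), with a median log2 change of -0.0015. Their mean level was 5.86 to 5.93 on the 4 arrays against 4.93 for all genes, and 11.7% of genes at or above the median level passed. The receptor side of adrenomedullin was not seen above the olfactory receptor level for Calcrl, Ramp2 and Ramp3, with means of 2.97, 2.84 and 3.003 in scramble and 2.83, 2.77 and 2.90 in shLDHA. Ramp1, a further gene of the Ramp family, read 4.07 and 4.28 against 4.79 and 4.34 and did not pass (limma adjusted p = 0.221).

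Beside P4ha1, its dim relative P4ha3 read 3.59 and 3.60 in scramble and 3.92 and 4.04 in shLDHA (log2 change 0.38, SE 0.09, limma adjusted p = 0.0543), and the shared partner subunit P4hb had a log2 change of 0.17 (SE 0.08). The Kdm3a relatives Kdm3b and Jmjd1c had log2 changes of -0.05 and -0.13. Of the Higd1a relatives, Higd2a had one of 0.24 and Higd1b, below the olfactory receptor level in both groups, one of -0.33. None of these passed. Bcl2l1, which encodes the survival protein BCL-XL that BNIP3 binds, fell by 0.42 on the log2 scale (SE 0.08, limma adjusted p = 0.0343). Of the clock genes that Bhlhe40 acts on, Per1 read 7.23 and 7.21 in scramble and 6.68 and 6.87 in shLDHA (limma adjusted p = 0.0453), while Dbp read 5.49 and 5.22 against 6.04 and 6.24, 1.72-fold higher (limma adjusted p = 0.0185). Per1 and Dbp thus moved in opposite directions, and Clock, with a log2 change of -0.01, did not pass.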
